A study of Mus musculus with 6 samples.

Results

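The cells described here were choroid plexus epithelial cells captured from mouse hippocampal tissue by droplet single-cell RNA sequencing. The cells were chosen by their own RNA: a cell barcode was a member when it had at least 1 unique molecular identifier (UMI, a tag that marks 1 captured RNA molecule) for 3 or more of 7 choroid plexus genes and for at most 1 of 5 genes of other cell types. The 7 genes were Clic6, Folr1, Kl, Kcnj13, Sostdc1, Prlr and 1500015O10Rik. The 5 genes were P2ry12 (microglia), Cldn5 (endothelium), Aqp4 (astrocytes), Mog (oligodendrocytes) and Foxj1 (ependyma). Barcodes also had to hold 250 to 6000 genes, under 25% mitochondrial UMIs, and to occur in only 1 of the 3 hippocampal barcode files. This gave 233 cells of 13461 hippocampal barcodes and of 27530 barcodes that passed the filters on genes and mitochondrial UMIs in the whole series. The study set out to test a short isolation method, with a single enzyme step, for microglia and vascular cells. Hippocampi came from female wild-type C57Bl/6J mice aged 5 weeks, with attached white matter scraped off as far as possible. The tissue was digested with dispase II, papain and DNase I and freed of myelin on Percoll. Cells of 3 mice were pooled into 1 suspension and sequenced as 3 libraries, so the libraries were technical replicates of 1 biological sample. No cell was sorted, and no statistical test of a condition was possible.

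The choroid plexus is a folded sheet of cuboidal epithelium in the brain ventricles, over a core of leaky capillaries. Its cells secrete cerebrospinal fluid by moving ions and water, carry vitamins and hormones from blood, and release proteins such as transthyretin (Ttr), a carrier of thyroxine and of retinol-binding protein. Tight junctions between them form the barrier between blood and cerebrospinal fluid, and they arise from the same neuroepithelium as the ciliated ependymal cells that line the ventricles.

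The promoters of 4 genes are shown because their transcripts marked these cells and because Otx2, a homeobox factor whose family binds DNA around the letters TAATC, was among the genes with the largest ratios. Each run holds the 250 bases before the RefSeq start in GRCm38.p6, 5′ to 3′ on the strand of the gene, with TAATC or its reverse complement GATTA in capitals.
Kcnj13, an inward rectifier potassium channel, chr1:87394730-87394979, minus strand: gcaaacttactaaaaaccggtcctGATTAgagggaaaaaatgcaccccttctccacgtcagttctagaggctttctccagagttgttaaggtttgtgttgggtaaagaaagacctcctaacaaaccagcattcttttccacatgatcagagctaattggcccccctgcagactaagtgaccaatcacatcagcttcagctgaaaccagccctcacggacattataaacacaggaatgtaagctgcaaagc
Kl, encoding klotho, chr5:150952357-150952606, plus strand: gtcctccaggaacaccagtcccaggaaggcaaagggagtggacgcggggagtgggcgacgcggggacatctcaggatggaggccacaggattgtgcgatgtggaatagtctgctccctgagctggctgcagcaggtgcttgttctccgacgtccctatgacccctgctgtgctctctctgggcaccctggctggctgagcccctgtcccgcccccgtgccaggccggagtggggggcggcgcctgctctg
Kcne2, a potassium channel beta subunit, chr16:92292139-92292388, plus strand: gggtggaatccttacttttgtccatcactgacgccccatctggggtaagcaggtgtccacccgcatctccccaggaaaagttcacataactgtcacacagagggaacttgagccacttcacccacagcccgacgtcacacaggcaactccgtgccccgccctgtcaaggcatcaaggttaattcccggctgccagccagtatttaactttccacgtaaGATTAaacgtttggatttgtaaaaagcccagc
Htr2c, a serotonin receptor, chrX:146962263-146962512, plus strand: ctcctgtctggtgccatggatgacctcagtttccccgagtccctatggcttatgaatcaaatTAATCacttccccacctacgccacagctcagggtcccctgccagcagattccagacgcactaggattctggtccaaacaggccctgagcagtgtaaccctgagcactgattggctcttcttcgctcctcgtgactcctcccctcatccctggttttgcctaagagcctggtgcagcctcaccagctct
The letters occurred once in the windows of Kcnj13, Kcne2 and Htr2c, and the Kl window held no match. The 4 genes were picked by hand and by no fixed rule, so the matches among them are not a share of any group. Of the 20 genes with the largest ratios outside the rule, 14 had a promoter in the table and 3 of these held the letters (21.4%), as did 1 of the 3 rule genes found there. Of all 32851 promoter windows of this length in the table, 19.8% held the letters on either strand. That share counts windows, while the shares of genes count a gene once if any of its windows held the letters. Among the genes that were higher in the choroid plexus cells, as defined below, 580 of 766 had a promoter in the table and 20.5% of these held them. Among the 12078 genes compared that had a promoter in the table the share was 16.9%, and no test was made of these shares. A match here is a match of letters and not a binding site.

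The 3 libraries gave 94, 66 and 73 cells, which was 2.07%, 1.44% and 1.68% of the barcodes kept in replicates 1, 2 and 3 (1.73% pooled, exact Clopper-Pearson 95% interval 1.52 to 1.97%, which covers counting error only). The SD of the share over the 3 libraries was 0.320 percentage points. Depth differed between them, with a median of 3226 UMIs per cell in replicate 1, 7216.5 in replicate 2 and 6025 in replicate 3. Of the 34 cells with under 1000 UMIs, 27 were in replicate 1. All cells together held 2031321 UMIs, with 507 to 55206 per cell and a median of 1568 genes. A further 34 barcodes, all in replicate 1, met the marker criteria with under 250 genes. Another 5 had more than 6000 genes and 9 had 25% or more mitochondrial UMIs, and none of these was kept.

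Many barcodes with choroid plexus RNA were found in more than 1 hippocampal file and were therefore not counted as members. Counting each copy once, the marker criteria were met by 416 of the 622 kept barcodes that occurred in 3 files and by 45 of the 127 that occurred in 2 files, against 233 of the 13461 found in 1 file. These 461 copies of shared barcodes were 66.4% of all 694 that met the criteria. They were shallow, with a median of 832.5 UMIs for those in 3 files, and Ttr made up a median of 36.4% of their UMIs. Over all barcodes in the files, 248 occurred in all 3, and they held 54.2%, 51.0% and 49.3% of each library's Ttr UMIs but 8.02%, 3.21% and 4.39% of its UMIs. With shared barcodes kept, the mean Ttr level over the libraries was 246613 counts per 1e+06 UMIs (CPM) in place of 225733, and the genes higher than in the other barcodes numbered 756 in place of 766.

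Ttr was not used to choose the cells and was their most abundant transcript. Its level was 233553 CPM in replicate 1, 206074 in replicate 2 and 237573 in replicate 3, that is 22.7% of all their UMIs, and 231 of 233 cells had at least 1 Ttr UMI. Ttr UMIs were also found at low levels in every other cell class, with 191 CPM in microglia, 176 in astrocytes, 174 in endothelial cells and 153 in ependymal cells, where 63.8 to 69.2% of cells had a UMI. The similar low level in unrelated classes is the background against which Ttr in the choroid plexus cells was read. All other hippocampal barcodes together stood at 2274, 323 and 1375 CPM in replicates 1, 2 and 3. That level takes in barcodes with 1 or 2 of the markers, with up to 41.2% Ttr. Ttr was 0.0295% and 0.839% of their pooled UMIs. It also takes in barcodes with 3 or more markers that the barred genes kept out. Of these, 73 had 2 barred genes and 8.22% Ttr over their pooled UMIs, and 19 had 3 barred genes and 7.59%.

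The 7 genes of the rule were present by construction and are given as a description. The most abundant was 1500015O10Rik, encoding the secreted peptide precursor augurin, with 3290, 2640 and 3588 CPM in replicates 1 to 3. The folate receptor Folr1 stood at 993, 838 and 1031 CPM, and Prlr, the prolactin receptor, at 941, 546 and 817 CPM. Sostdc1, a secreted antagonist of BMP and Wnt ligands, had 922, 747 and 646 CPM. Kcnj13 was at 751, 744 and 1030 CPM, Kl at 551, 557 and 596 CPM, and the chloride channel protein Clic6 at 361, 415 and 361 CPM. In every library 1500015O10Rik led and Clic6 was last, and the genes between them changed order from library to library. The share of cells with a UMI ran from 71.7% for Clic6 to 97.9% for 1500015O10Rik. Not all 7 were particular to these cells. In ependymal barcodes 1500015O10Rik had a UMI in 72.8%, Folr1 in 71.4% and Sostdc1 in 57.8%, and the rest in at most 2.72%. Of the genes barred by the rule, Foxj1 was found in 51 cells, P2ry12 in 9, Cldn5 and Mog in 7 each and Aqp4 in 4.

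Ttr, the label marker that the rule did not use, was high in most cells with 4 or more markers and less evenly in those with 3. By number of markers, 29 cells had 3, 31 had 4, 28 had 5, 43 had 6 and 102 had all 7. Just inside the threshold, cells with 3 markers had a median of 12.2% Ttr and 1031 UMIs, and 4.40% Ttr over their pooled UMIs. These 29 cells held 3652 CPM of microglial and 3090 CPM of ependymal markers, both above their 2122 CPM of the 7 rule genes. The label is thus weakest there, though such sums over pooled UMIs weigh deep cells most. The 43 cells with 6 markers held 3355 CPM of microglial and 3046 CPM of oligodendrocyte markers, below their 5556 CPM of the rule genes. Just outside the threshold, the 61 barcodes with 2 markers had a median of 0.0779% Ttr and 2940 UMIs. The 73 barcodes with 3 or more markers but with 2 of the barred genes had a median of 0.0165% Ttr and a summed 6161 CPM of 7 ependymal genes, against 483 CPM in the members. Some of the 73 held much choroid plexus RNA, with up to 34.9% Ttr. Over their pooled UMIs they had 8.22% Ttr and 3533 CPM of the rule genes.

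**Figure D1:**
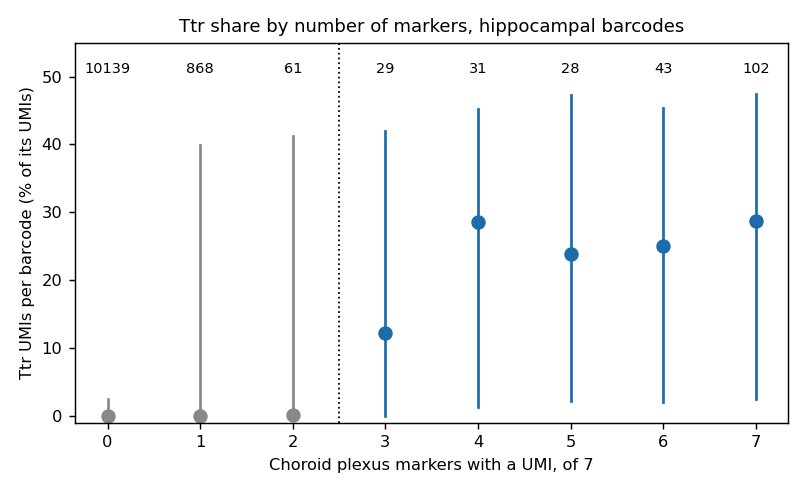
Share of Ttr in the UMIs of each hippocampal barcode (y axis, percent) by the number of the 7 choroid plexus markers with a UMI (x axis), for barcodes with at most 1 gene of another cell type. Points are medians, lines run from the lowest to the highest barcode, numbers above are barcodes, and the dotted line is the threshold. Medians lie near 0 for 0 to 2 markers, at 12.2% for 3 and between 23.9% and 28.7% for 4 to 7.

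Levels of all genes were compared as UMIs summed per library and scaled to CPM, not divided by transcript length, first with the 13228 other hippocampal barcodes. A gene was called when it differed by at least 2-fold in the same direction in each of the 3 libraries, after adding 5 CPM to both sides, and held at least 20 UMIs. With 1 biological sample this is a rule of size and no test. Of 16795 genes compared, 766 were higher (4.56%) and 3542 lower (21.1%) in the choroid plexus cells. Ttr alone lowers the CPM of every other gene in these cells, and the median log2 ratio over all genes was -0.44. With Ttr left out of the total, that median moved up by 0.16, and 1058 genes were higher and 2711 lower, so the higher genes went from 17.8% to 28.1% of those called. Changes of single genes are best read against this shift. In the lists below, genes of the rule were left out of each count, and the ratios are on the log2(CPM + 5) scale with the SD over the 3 libraries.

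Genes for moving ions and water across the epithelium were mostly high. Of 17 such genes, 13 were higher, 0 were lower and 4 were not called, with a median log2 ratio of 3.56 against -0.44 for all genes. The shares called over all genes were 4.56% higher and 21.1% lower. Fxyd1, a small regulator of the sodium pump, led with 1149, 1070 and 1245 CPM in replicates 1 to 3 and a log2 ratio of 3.56 ± 0.06 against the other barcodes. The pump's beta subunit Atp1b1 had 731, 504 and 676 CPM (log2 ratio 3.62 ± 0.21). Both genes exceeded the pooled level of the other barcodes in every library. Kcne2 showed the largest ratio of the list, 5.38 ± 0.32, from 275, 290 and 271 CPM. The membrane carbonic anhydrase Car12, which interconverts carbon dioxide and bicarbonate, had 137, 133 and 185 CPM (4.69 ± 0.26), and the bicarbonate cotransporter Slc4a5 had 97.2, 79.4 and 112 CPM (4.16 ± 0.20). Aqp1, the apical water channel, had 91.5, 66.4 and 122 CPM (4.13 ± 0.39) and was found in 33.0% of cells. The cytosolic carbonic anhydrase Car2, at 638 CPM against 766 in the other barcodes, and the sodium-potassium-chloride cotransporter Slc12a2, at 221 against 269 CPM, were not called, nor was Slc12a4 at 55.1 CPM.

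Many carriers of nutrients and organic anions were high. Of 22 such genes, 10 were higher, 4 lower and 8 not called (median log2 ratio 0.46). Among all genes 4.56% were higher and 21.1% lower, so the lower share here was near that of all genes. Slc22a17, a receptor for the iron-binding protein lipocalin 2, was the most abundant at 875, 805 and 1024 CPM (log2 ratio 2.96 ± 0.15). The copper importer Slc31a1 had 194, 191 and 260 CPM (1.95 ± 0.26), and Steap1, a metalloreductase, had 204, 154 and 197 CPM (4.58 ± 0.13). The lactate carrier Slc16a8, at 105 CPM, had a log2 ratio of 4.26 ± 0.28. The 4 lower genes are all strongly expressed by brain endothelium: the glucose transporter Slc2a1 (50.7, 50.2 and 59.6 CPM, -2.51 ± 0.12), Slco1a4 (-2.30 ± 0.62) and the efflux pumps Abcg2 (-2.99 ± 0.40) and Abcb1a (-3.82 ± 0.94). The thyroxine carrier Slco1c1 was at 302 CPM against 312 in the other barcodes. Slc46a1, the folate carrier coupled to protons, had 20.7 CPM and was not called.

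Among secreted proteins, Ttr and Enpp2 stood far above the rest. Of 14 such genes, 4 were higher, 3 lower and 7 not called, beside 4.56% higher and 21.1% lower over all genes, so the lower share was near that of all genes. Enpp2, the autotaxin enzyme that makes lysophosphatidic acid, had 11265, 11495 and 11890 CPM, a log2 ratio of 4.52 ± 0.21, and was found in 97.9% of cells. Igfbp2, a binding protein for insulin-like growth factors, had 1760, 1494 and 1850 CPM (4.42 ± 0.14), and the growth factor Igf2 had 239, 297 and 321 CPM (3.22 ± 0.13). Their 3 libraries did not approach the level of the other barcodes, 75.4 CPM for Igfbp2 and 26.2 CPM for Igf2. Apoe at 3181 CPM, the prostaglandin D synthase Ptgds at 1614 CPM, clusterin (Clu) at 1531 CPM and transferrin (Trf) at 706 CPM were abundant but not called. Cystatin C (Cst3) had 3443, 3870 and 2840 CPM, yet was lower than in the other barcodes, at 24840 CPM. Ceruloplasmin (Cp), at 2.95 CPM, and Serpinf1, at 2.46 CPM, were also lower.

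**Figure D2:**
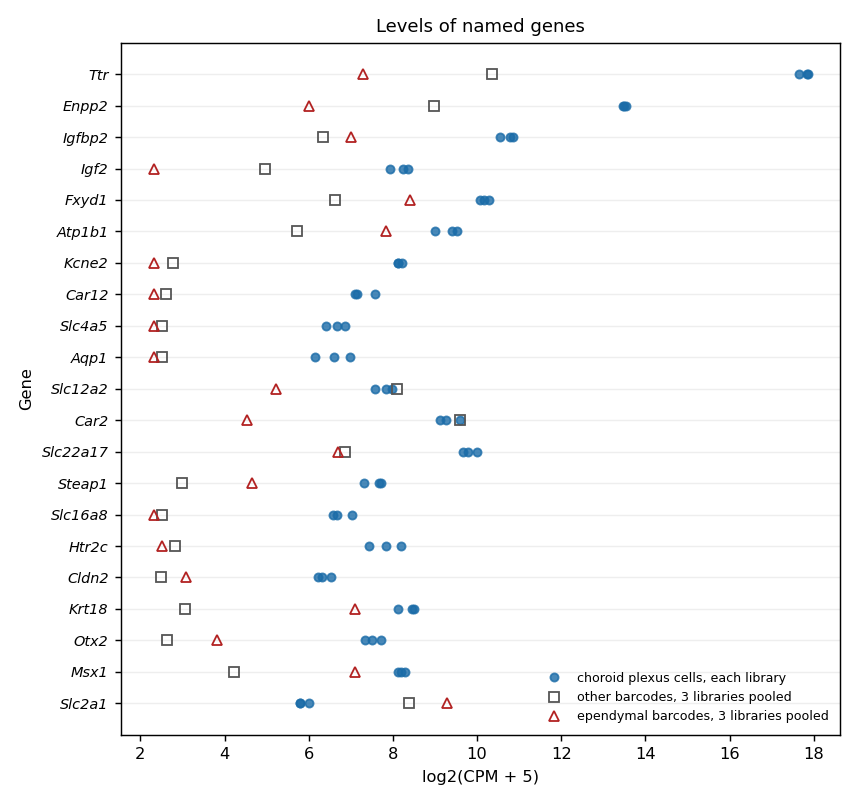
Levels of 21 named genes, none of them in the rule, as log2(CPM + 5) (x axis, one row per gene). Filled circles are the choroid plexus cells of each of the 3 libraries, squares the other barcodes and triangles the ependymal barcodes, both pooled over 3 libraries. The circles lie to the right of both for 18 genes including Ttr, Enpp2 and Kcne2, while Slc2a1 lies to the left and Slc12a2 and Car2 overlap the other barcodes.

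Receptors gave no common direction. Of 14 receptor genes outside the rule, 2 were higher, 5 lower and 7 not called, where 4.56% of all genes were higher and 21.1% lower. With Ttr left out of the total 4 were higher and 4 lower. Htr2c was the clearest, at 225, 169 and 285 CPM in replicates 1 to 3 against 2.03 CPM in the other barcodes (log2 ratio 5.06 ± 0.36). Igf2r, which takes up insulin-like growth factor 2, had 35.2, 38.9 and 36.9 CPM (1.25 ± 0.12). The insulin receptor Insr (-1.99 ± 0.08) and Igf1r (-1.88 ± 0.83) were lower, as were Ramp1 (-2.69 ± 1.62), Gpr37 (-4.91 ± 0.36) and Calcrl, which had 6 UMIs. The endocytic receptor Lrp2, known as megalin, had 1 UMI in all 233 cells. The tetraspanin Cd63 was the most abundant of the list at 1139 CPM and was not called, and Lepr, the leptin receptor, was at 24.6 CPM.

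Junction and polarity genes included a group of epithelial genes that were high. Of 18 genes compared, 10 were higher, 5 lower and 3 not called (median log2 ratio 1.47). Over all genes 4.56% were higher and 21.1% lower, and the lower share here was not far from the latter. The keratins Krt18 (346, 358 and 274 CPM, log2 ratio 5.31 ± 0.27) and Krt8 (91.5, 131 and 83.8 CPM, 3.82 ± 0.46) and Ezr, encoding the microvillus linker ezrin (438, 587 and 463 CPM, 3.15 ± 0.19), were the most abundant. The tight junction claudins Cldn2 (87.3, 74.5 and 69.6 CPM, 3.86 ± 0.08), Cldn3 (26.6 CPM, 2.28 ± 0.28) and Cldn1 (24.6 CPM, 2.49 ± 0.28) were all higher, as was the apical polarity gene Crb3 (66.0 CPM, 3.69 ± 0.13). Lower genes included the scaffold Tjp1 (-3.07 ± 0.35) and the cadherin Cdh2 (-2.40 ± 0.68). Tjp3, a relative of Tjp1, was higher (2.44 ± 0.12). Cdh1 and Marveld2 had 1 UMI each and Epcam 8.

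Of 10 choroid plexus transcription factors compared, 3 were higher, 0 lower and 7 not called. Among all genes 4.56% were higher and 21.1% lower. Msx1 had 308, 285 and 275 CPM (log2 ratio 3.99 ± 0.09), Otx2 had 176, 157 and 204 CPM (4.91 ± 0.24), and the roof plate factor Lmx1a had 8.45, 14.6 and 18.5 CPM (1.85 ± 0.40). These 3 are homeobox genes of the dorsal midline. Sox9, at 121 CPM, was not called. No UMI was found for Tfap2b or Mcidas. Of 12 factors that mark position along the brain, 7 had no UMI in these cells, among them all 5 Hox genes of the list and En2, where 3 UMIs would correspond to 1.48 CPM. The forebrain factors Emx2 and Emx1 had 11.8 and 10.3 CPM and were not called, and Lhx2 (-2.78 ± 0.70) was lower. Of the 7 factors compared 0 were higher and 3 lower, where 21.1% of all genes were lower. The 3 lower became 0 with at least 2 markers or with no limit on genes of other cell types.

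Nuclear genes of the respiratory chain were high almost throughout. Of 15 such genes, 14 were higher and 0 lower, with a median log2 ratio of 1.94. The shares over all genes were 4.56% higher and 21.1% lower. Cox8a led with 3814, 4082 and 3357 CPM (2.46 ± 0.12), followed by Cox4i1 at 2566 CPM (1.85 ± 0.09), Ndufa4 at 2549 CPM (2.51 ± 0.10) and Atp5g1 at 2413 CPM (3.45 ± 0.16). Cox8b, an isoform best known from heart and muscle, was outside the list and had the largest ratio after Ttr among genes the rule did not use, with 727, 548 and 709 CPM against 4.86 CPM (6.09 ± 0.47). For the 10 genes of the mitochondrial genome none passed the rule in either direction, with a median log2 ratio of 0.97. The most abundant of them, mt-Co3, had 21475, 16482 and 23766 CPM in replicates 1 to 3, and replicate 2 was the lowest. Without replicate 2, 5 of the 10 were higher, and with Ttr left out of the total 4 were. The cap on mitochondrial UMIs in the choice of cells bears on these genes directly.

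Retinoid and thyroid hormone genes gave 4 higher, 1 lower and 5 not called of 10 compared, with Ttr among the 4. Among all genes 4.56% were higher and 21.1% lower. The 4 higher became 2 with mitochondrial UMIs under 15% or 10%, or at 4-fold. The retinol transporter Stra6 had 45.1, 25.9 and 36.9 CPM (log2 ratio 1.42 ± 0.33). The thyroxine-activating deiodinase Dio2 was lower (-1.84 ± 0.41). Rbp4, Crabp2 and Dio3 had no UMI. Rdh5, a retinol dehydrogenase outside the list, had 490, 392 and 471 CPM (4.93 ± 0.06) and stood among the 20 largest ratios. The others of the 20 included Calml4, a calmodulin-like protein (5.74 ± 0.29), the whey-acidic-type protein Wfdc2 (5.65 ± 0.25), Prr32 (5.44 ± 0.32), the protease inhibitor Spint2 (5.17 ± 0.26), the defensin Defb11 (5.11 ± 0.20), Ppp1r1b (5.09 ± 0.23), Gm11744 (5.08 ± 0.10), Sulf1 (4.90 ± 0.22), Lbp (4.87 ± 0.25), Hemk1 (4.86 ± 0.31), Emb (4.86 ± 0.11) and Ociad2 (4.79 ± 0.13).

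Immediate early and heat shock genes, known to rise when tissue is dissociated, were mostly lower than in the other barcodes. Of 15 such genes, 12 were lower and 0 higher, with a median log2 ratio of -3.40, where 21.1% of all genes were lower. Jun had 92.9, 135 and 59.6 CPM against 1582 in the other barcodes (-4.00 ± 0.52), and Fos had 23.9, 8.10 and 27.0 CPM against 446 (-4.16 ± 0.75). Microglia made up 6337 of the 13228 other barcodes, and in them Jun stood at 3166 and Fos at 948 CPM. Against ependymal barcodes, 7 of 14 were lower, where 22.8% of all genes were lower. The list summed to 1640 CPM in the choroid plexus cells, 6006 in the other barcodes and 1106 in astrocytes. Hsp90aa1, the most abundant, held 1086 of the 1640 CPM and was not called against the other barcodes, so that sum rests largely on 1 gene. With cells cut down to 1000 UMIs each, Hsp90aa1 was found in 57.8% of choroid plexus cells and 21.1% of astrocytes. Single genes went both ways, with Jun in 5.53% against 10.3% and Jund in 26.6% against 22.6%.

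The 147 ependymal barcodes, cells of a common origin with the choroid plexus epithelium, gave a second comparison. They were chosen by at least 3 of 7 ependymal markers. They were deeper, with a median of 10443 UMIs and 3609 genes. Of 10265 genes compared, 526 were higher (5.12%) and 2340 lower (22.8%) in the choroid plexus cells, with a median log2 ratio of -0.57. With Ttr left out of the total the median moved up by 0.28, with 790 genes higher and 1804 lower, so the higher genes went from 18.4% to 30.5% of those called.

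Ion transport genes were again mostly higher. Of the 17 ion and water transport genes outside the rule, 14 were higher than in ependymal barcodes and 0 lower. In this comparison 5.12% of all genes were higher and 22.8% lower. Car2 and Slc12a2, not called above, were among the 14 (log2 ratios 4.80 ± 0.25 and 2.58 ± 0.39). Of 13 secreted proteins outside the rule, 7 were higher, 3 lower and 3 not called, so the lower share was near that of all genes. Enpp2 was at 59.0 CPM in ependymal barcodes (7.50 ± 0.29) and Ptgds at 17.3 CPM (6.18 ± 0.32). Several genes had no UMI there, and against the 3 UMIs that a count of 0 allows over the class (2.08 CPM) Cox8b was at least 320-fold higher, Igf2 at least 137-fold, Kcne2 at least 134-fold, Car12 at least 73.1-fold, Slc16a8 at least 50.4-fold and Aqp1 at least 45.4-fold. Otx2 was higher by 3.72 ± 1.22, from 9.02 CPM in ependymal barcodes. Genes higher in ependymal barcodes included Aqp4, which the rule barred, the keratin Krt15 (-6.11 ± 1.40), Nnat (-6.02 ± 2.02) and Rarres2 (-5.67 ± 1.13), and the SDs above 1 mark genes whose few UMIs lay unevenly across the libraries.

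Motile cilia genes were low against ependymal barcodes, a difference that the choice of both classes used, since 7 of the 14 genes were the ependymal markers and the ciliary factor Foxj1 was barred in the choroid plexus cells. It is given as a description. All 14 genes of the list were lower than in ependymal barcodes, with a median log2 ratio of -3.90 and a range of -6.01 to -2.15. Among all genes 22.8% were lower in that comparison. The list summed to 728, 1128 and 470 CPM in replicates 1, 2 and 3 against 11461 CPM in ependymal barcodes. Against all other barcodes 5 of the 14 were higher and 0 lower, where 4.56% of all genes were higher and 21.1% lower. The 5 higher became 8 once ependymal barcodes were taken out of the comparison. Without the 32 choroid plexus cells that also met the rule of another class, described further on, 5 were higher and 3 lower. Without the limit on genes of other cell types all 14 were higher, so this count rests on that limit. The radial spoke gene Rsph1 had 217, 287 and 178 CPM and was found in 56.2% of cells, Cfap126 had 154, 227 and 80.9 CPM in 43.8%, and the dynein light chain Dynlrb2 had 120, 165 and 80.9 CPM in 42.1%. Tmem212 (32.4, 89.1 and 0 CPM) and Ccdc153 (23.9, 71.3 and 0 CPM) behaved otherwise, with UMIs in 2.15% and 2.58% of cells and none in replicate 3. A subset of ciliary genes was thus spread over many choroid plexus cells, while others came from a few cells.

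**Figure D3:**
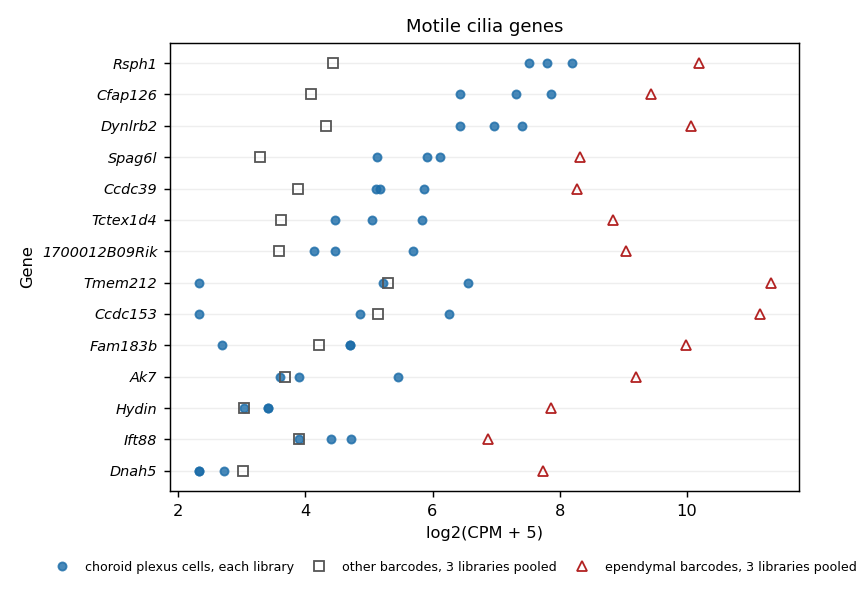
Levels of 14 motile cilia genes as log2(CPM + 5) (x axis, one row per gene). Filled circles are the choroid plexus cells of each of the 3 libraries, squares the other barcodes and triangles the ependymal barcodes, both pooled. Every triangle lies to the right of all 3 circles, and Rsph1, Cfap126 and Dynlrb2 have circles well to the right of the squares.

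Metal and antioxidant genes gave different counts in the comparisons. Of 14 genes, 4 were higher and 1 lower than in the other barcodes (4.56% and 21.1% over all genes), and of 13 compared with ependymal barcodes 1 was higher and 6 lower (5.12% and 22.8% over all genes). The 1 lower became 3 with at least 4 markers or without cells that met another class rule, 2 without replicate 2, and 0 with no limit on genes of other cell types. The metallothionein Mt3 had 2721, 2995 and 2122 CPM, above the other barcodes (log2 ratio 1.63 ± 0.31) and below the ependymal 10337 CPM (-1.99 ± 0.30). The selenoprotein Gpx4 had 1704, 1959 and 1703 CPM (1.80 ± 0.14 against the other barcodes). Mt1 was at 332, 883 and 314 CPM, with replicate 2 more than 2-fold above the others, and Mt2 was likewise highest there, at 82.7 CPM.

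**Figure D4:**
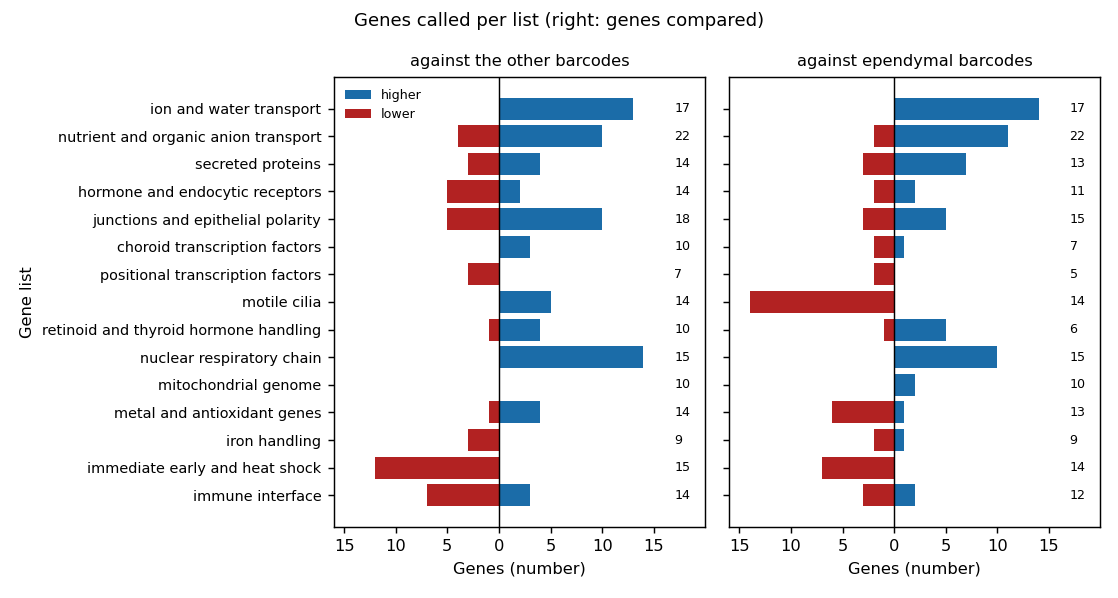
Number of genes called higher (right of 0) and lower (left of 0) in the choroid plexus cells for 15 gene lists, against the other hippocampal barcodes (left panel) and ependymal barcodes (right panel). Numbers at the right edge are the genes compared, and genes of the rule are left out. Ion and water transport has 13 of 17 and 14 of 17 higher, the respiratory chain 14 of 15 and 10 of 15, and motile cilia 14 of 14 lower against ependymal barcodes.

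RNA of most other cell types was lower than in the other barcodes and was not even across the cells. Those barcodes include the same cell types, so the counts of lower markers do not show that this RNA was low. Outside the rule, 8 of 8 microglial, 6 of 6 endothelial, 6 of 6 astrocyte, 6 of 6 oligodendrocyte and 6 of 6 macrophage markers were lower than in the other barcodes, and 4 of the 6 macrophage markers had no UMI. Of the mural markers 5 of 6 were lower, of the erythroid 4 of 5, of the fibroblast 3 of 5 and of the neuronal 2 of 6. Ependymal markers went the other way, with 2 of 7 higher and 0 lower (median log2 ratio 1.29). Among all genes 4.56% were higher and 21.1% lower. The 9 microglial genes, P2ry12 included, summed to 1121, 1762 and 500 CPM in replicates 1, 2 and 3, against 39669 CPM in microglia. They summed to 976 CPM in ependymal barcodes, 125 in astrocytes and 124 in endothelial cells. Barcodes that also met another class rule were left out of the astrocyte and endothelial classes. Such barcodes were kept among the ependymal barcodes and the choroid plexus cells, so these sums are not like for like. Oligodendrocyte markers summed to 148, 125 and 1321 CPM, with replicate 3 far above the others. Single cells carried much of this RNA, since 1 cell held 74.5% of all Mbp UMIs and 1 cell 54.1% of those of the vitronectin gene Vtn. In all, 32 of the 233 cells also met the marker rule of another class, 14 of them that of microglia, 8 ependyma, 6 astrocytes and 6 endothelium, and their Ttr median was 14.6%. A doublet caller, Scrublet, marked 7 of the 233. Without the 32 cells, 763 genes were higher than in the other barcodes in place of 766. The part of mixed droplets in the remaining values was not tested.

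The cells varied widely in their share of Ttr. It ran from 0 to 47.4% of a cell's UMIs with a median of 27.7%, and medians of 29.8%, 20.4% and 26.3% in replicates 1, 2 and 3. In 31 cells it was below 5%, and 11 of these also met the rule of another class. The shallow cells were at the high end, with a median of 35.4% Ttr in the 34 cells under 1000 UMIs against 25.4% in the 64 cells with 10000 or more. Across the 199 cells with at least 1000 UMIs, the share of Ttr went with that of Enpp2 (Spearman's rho 0.78 over cells, 0.68 to 0.85 within each library) and with the mitochondrial share (0.67, and 0.64 to 0.68 within libraries). These cells share 3 libraries and 1 suspension, and shares of one total depend on each other, so the values are descriptions. When cells were limited to under 15% mitochondrial UMIs, the mean Ttr level was 187503 CPM in place of 225733, and under 10% it was 142156 CPM.

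**Figure D5:**
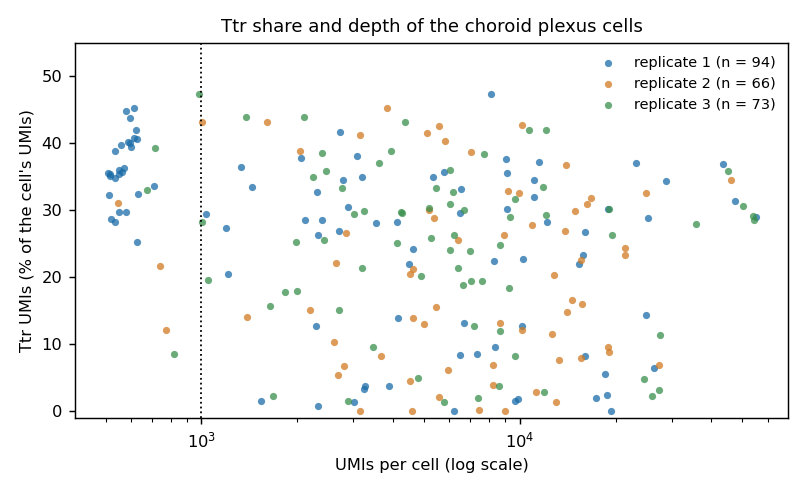
Share of Ttr in the UMIs of each of the 233 choroid plexus cells (y axis, percent) by its total UMIs (x axis, log scale), coloured by library. The dotted line marks 1000 UMIs. The 34 cells to its left are mostly of replicate 1 and have a median of 35.4% Ttr, while deeper cells spread from 0 to 47.4%.

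Among 1186 genes with at least 200 UMIs, 435 (36.7%) varied between cells by more than 2 times what counting alone gives after scaling each cell by its depth, and 47 by more than 10 times (median 1.71). The largest values after Ttr belonged to the nuclear RNA Malat1. It stood at 4416, 3970 and 8519 CPM in replicates 1, 2 and 3 against 59139 in the other barcodes and 25913 in ependymal barcodes (log2 ratios -3.37 ± 0.55 and -2.18 ± 0.65). Of the 233 cells, 67 had no Malat1 UMI, 166 were under 1000 CPM and 23 over 10000 CPM, and 5 cells held 56.2% of its UMIs. Cells of 10000 UMIs or more were included in this pattern, with 17 of 64 lacking Malat1. The 34 cells under 1000 UMIs differed, with 5 under 1000 CPM and 9 over 10000 CPM, though 1 UMI there already exceeds 1000 CPM. Pooled Malat1 stood at 6261 CPM in them and 629 in the 43 cells of 1000 to 3000 UMIs. It was 3121 in the 92 cells of 3000 to 10000 UMIs and 7084 in the 64 deepest. Mitochondrial genes, Cst3, Mbp and Vtn were also among the 10 most variable genes. Between libraries, Mbp, Vtn, C1qb and Nfib were among the genes with the widest ranges, and Nfib had 190 CPM in replicate 1 against 47.0 and 69.6.

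The number of genes found at a fixed depth depended on Ttr. When each cell was thinned to 1000 UMIs, the 199 choroid plexus cells deep enough had a median of 495 genes, against 679 in 124 ependymal, 687 in 389 endothelial, 635 in 397 microglial and 568 in 389 astrocyte cells. With Ttr taken out before thinning, an alternative added after seeing the data, the median was 614 genes in 189 choroid plexus cells, 676 in ependymal, 687 in endothelial, 636 in microglial and 570 in astrocyte cells. The choroid plexus cells were then between astrocytes and microglia and no longer the lowest. At 1000 UMIs with Ttr counted, 97.5% of choroid plexus cells had a Ttr UMI (99.1% before thinning), against 17.9% of microglia (67.3% before). Enpp2 was found in 93.5% (97.9% before) against 6.45% of ependymal cells (36.7% before), and Folr1, a gene of the rule, in 58.8% (85.8% before) against 26.6% (71.4% before). Left out for lack of UMIs were 34 choroid plexus, 23 ependymal, 11 endothelial, 3 microglial and 11 astrocyte cells, the last 3 classes having been sampled to 400 cells each.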

How the data were processed

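Per the labels, libraries were made with 10x Genomics Chromium and processed with Cell Ranger 5.0.1 against mm10, while the matrix headers name an earlier software version that differs between hippocampus and cortex. The authors deposited raw UMI counts, a whole-number count per gene and barcode, which were used unchanged. Hippocampal libraries held 50024850, 47800210 and 43963706 UMIs in 5232, 5210 and 4894 barcodes. Members, gene lists and comparisons were chosen with earlier results of these data known. Counts were summed per library and class and scaled to CPM with Python 3.11.15, NumPy 2.4.6 and SciPy 1.17.1. Comparison classes needed 3 markers of their own type. Barcodes that met more than 1 class rule were left out of the astrocyte, endothelial and microglial classes but not of the ependymal class. Ranges after ± are SDs over 3 libraries, which may be purely technical. Doublets were called with Scrublet in scanpy 1.11.5, at a rate of 0.8% per 1000 barcodes, and were kept. Genes named in the text were the rule and label markers, the most and least abundant of each list with those that went against it, the most abundant, largest ratios, most variable and widest between libraries; other list members were named after their values were seen. Sequences are from RefSeq, GRCm38.p6, and matched by symbol (3 of the 7 rule markers had an entry). The cortex libraries, from mice aged 3 weeks, entered no comparison. Some genes that the naming rule selects are not reported here.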

Additional observations from a re-analysis of the deposited data

Results flagged for a closer look

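The marker rule was also met by 14 of 13249 barcodes in the 3 cortex libraries (8, 4 and 2), a signal in libraries that entered no comparison. They had a median of 12311.5 UMIs, a Ttr share of 0 to 33.8% and 86309 CPM of Ttr (95% exact Poisson interval 84919 to 87716 for counting error only), with UMIs for Ttr in 9, Enpp2 in 13 and Otx2 in 3 of the 14. Region, age and preparation differed together between cortex and hippocampus and cannot be told apart.

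Barcodes that occurred in several hippocampal files, which entered no comparison, gave 461 copies that met the marker rule, where 1 barcode can count once in each file. Among the 248 barcodes found in all 3 files, 130 had at least 3 choroid plexus markers in every copy, and the copy with the most UMIs was in replicate 1 for 221 of the 248. The middle copy had a median of 0.801 of the UMIs of the largest. The source of these shared barcodes was not tested.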

How the results depend on the processing

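Of the values recomputed under other settings, 441 kept within the spread of the libraries or 1.5 times the main count and 51 did not. Gene lists were scored there only by their count of higher genes. A list with 0 higher in the main run thus counted as kept whenever it stayed at 0. Such values made up 24 of the 441 for positional factors, 23 each for iron handling and immediate early genes, and 17 for mitochondrial genes. The tally does not measure how stable those lists were. The Kl share was placed among the 51 without this measure. The 233 members became 155 with none of the 5 other-type genes allowed, 694 with shared barcodes kept, 139 with mitochondrial UMIs under 10%, and 139 to 167 when a library was left out, with 139 without replicate 1. The mean Ttr level of 225733 CPM became 192047 with at least 2 markers, 246613 with shared barcodes, 187503 with mitochondrial UMIs under 15%, 142156 under 10%, 160603 with no limit on the 5 other-type genes, 291962 with Ttr left out of the total and 252055 with mitochondrial genes left out. Against the other barcodes, 1246 genes were higher and 2096 lower after subtraction of the microglial level, 231 and 1016 at 4-fold, and 5406 lower with 1 CPM added. With no limit on the 5 other-type genes, 1234 were higher than in the other barcodes and 579 lower than in ependymal barcodes, and the genes higher became 14 for cilia, 5 for transcription factors, 7 for metal and antioxidant genes and 1 each for iron handling and for immediate early genes. Against ependymal barcodes, 790 were higher with Ttr left out, 342 higher and 1215 lower at 100 UMIs, and 160 and 874 at 4-fold. At 4-fold the genes higher became 1 for receptors, 3 for cilia, 2 for retinoid and thyroid hormone handling, 6 for the respiratory chain, 1 for metal and antioxidant genes and 0 for the immune interface. Receptors gave 1 with mitochondrial UMIs under 15% or 10% and 4 with Ttr left out or the microglial level subtracted, retinoid genes 2 under 15% or 10%, and cilia 8 without ependymal barcodes. Mitochondrial genes gave 1 with at least 4 markers, 2 with shared barcodes or without the upper limit on genes, 4 with Ttr left out, 1 with mitochondrial genes left out, 7 with the microglial level subtracted and 0 to 5 when a library was left out. After that subtraction the genes lower went from 12 to 1 for immediate early genes and from 7 to 0 for the immune interface; it sets both sides to 0 for a gene with a higher level in microglia than in the other barcodes, so such a lost call says nothing of these cells. Metal and antioxidant genes lower went from 1 to 3 with at least 4 markers or without cells that met another class rule, to 2 without replicate 2, with none of the 5 other-type genes allowed or with the microglial level subtracted, and to 0 at 4-fold or with no limit on those genes. Kl was found in 44.2% of cells thinned to 1000 UMIs and 63.4% at 2000.

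The median of 495 genes at 1000 UMIs became 614 with Ttr, and 662.5 with Ttr and mitochondrial genes, taken out before thinning. These alternatives, and those on cells under 1000 UMIs and on cells that met another class rule, were chosen after seeing the data. No paired analysis was possible because no result came from a test, and the numbers shared by cortex and hippocampus are those of separate preparations. Classes were compared within each hippocampal library. The small number of cells limits genes below about 1.48 CPM, the level of 3 UMIs.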

Other observations

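Iron handling genes gave 0 higher and 3 lower of 9 against the other barcodes, where 21.1% of all genes were lower. The ferritin chains Fth1 and Ftl1 were abundant, at 3945 and 995 CPM, and not called, while the transferrin receptor Tfrc (4.22, 6.48 and 7.10 CPM in replicates 1 to 3, log2 ratio -3.03 ± 0.20) and the iron exporter Slc40a1 (-3.52 ± 0.25) were lower. Against ependymal barcodes 1 was higher and 2 lower, where 5.12% of all genes were higher and 22.8% lower. The lower share was thus near that of all genes. Trf was higher (3.89 ± 0.69), and Cp (-4.87 ± 0.38) and Heph (-1.59 ± 0.63) were lower.

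Of 14 genes at the interface with the immune system, 3 were higher and 7 lower than in the other barcodes, where 4.56% of all genes were higher and 21.1% lower. Against ependymal barcodes 2 were higher and 3 lower of 12, where 5.12% of all genes were higher and 22.8% lower. The complement inhibitor Cd59a had 206, 177 and 254 CPM (log2 ratio 2.10 ± 0.18), the adhesion molecule Vcam1 had 163, 147 and 178 CPM (1.61 ± 0.17), and Cd55 had 49.3, 35.7 and 24.1 CPM (2.36 ± 0.41). The class I antigen genes B2m (97.0 CPM, -2.85 ± 0.09), H2-K1 (54.2 CPM, -2.31 ± 0.24) and H2-D1 (32.0 CPM, -3.40 ± 0.40) were lower, and the 14 genes summed to 3729 CPM in microglia, 2260 in all other barcodes, 685 in the choroid plexus cells, 602 in ependymal barcodes and 583 in astrocytes. C3 and Spp1 had no UMI in the 233 cells.

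Among the lowest ratios against the other barcodes, named after their values were seen, were those of myelin and haemoglobin genes: Mal (13.3 against 2514 CPM, -7.11 ± 0.49), Hbb-bs (-6.26 ± 1.11) and Mobp (-6.00 ± 0.39).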
